A study of Mus musculus with 11 samples.

Results

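The casein genes of the mouse mammary gland were followed in 3 of the 11 samples of this series, by their transcript level at parturition (L1) and by the STAT5A peaks and H3K4me3 regions of their locus at day 6 of pregnancy (P6). The members were the 5 genes Csn1s1, Csn2, Csn1s2a, Csn1s2b and Csn3, taken by symbol from 14847 named genes, and every peak or region within chr5:88050000-88400000 of the mouse build mm9. That window of 350 kb held 12 of 8822 STAT5A peaks and 2 of 14738 H3K4me3 regions. All 3 samples came from wild-type mice of the mixed background 129SV::FVB/N::C57BL/6, with no treatment named. The P6 group was STAT5A ChIP-seq (chromatin precipitated with an antibody to the transcription factor STAT5A) and H3K4me3 ChIP-seq of whole gland. The L1 group was RNA-seq of whole gland from which lymph nodes had been left out. Each group held 1 library, so no value below has a replicate check and no test was made, and the labels do not say whether tissue of several animals was pooled. The other 8 samples were not used here, among them the inputs, the samples of day 13 and the L1 ChIP-seq.

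Caseins are the main proteins of milk, made and secreted by the alveolar cells of the mammary epithelium. In the Golgi they are phosphorylated, bind calcium phosphate and gather into micelles. Kappa-casein, encoded by Csn3, sits on the micelle surface and keeps the particles in suspension. Prolactin, acting through its receptor and the kinase JAK2, activates STAT5, which binds DNA elements of the form TTCNNNGAA, and casein genes are its classical targets. H3K4me3 is a histone mark found at active promoters.

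Promoter sequences were looked up for the members because STAT5 elements of casein promoters are the textbook link between the hormone and these genes. The RefSeq table of the build GRCm38.p6, which is not the build of the ChIP-seq files, matched 3 of the 5 genes: Csn1s1, Csn2 and Csn1s2a. Not matched were Csn1s2b and Csn3. The 250 bases before each annotated start are printed 5′ to 3′ on the strand of the gene, with matches to TTCNNNGAA in capitals. They span chr5:87665958-87666207 on the plus strand for Csn1s1, chr5:87699426-87699675 on the minus strand for Csn2 and chr5:87774200-87774449 on the plus strand for Csn1s2a.
Csn1s1: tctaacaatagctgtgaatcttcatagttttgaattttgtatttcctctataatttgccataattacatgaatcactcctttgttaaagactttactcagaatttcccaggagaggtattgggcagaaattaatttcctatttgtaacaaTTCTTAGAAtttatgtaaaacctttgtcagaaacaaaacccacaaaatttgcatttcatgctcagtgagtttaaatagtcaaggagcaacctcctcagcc
Csn2: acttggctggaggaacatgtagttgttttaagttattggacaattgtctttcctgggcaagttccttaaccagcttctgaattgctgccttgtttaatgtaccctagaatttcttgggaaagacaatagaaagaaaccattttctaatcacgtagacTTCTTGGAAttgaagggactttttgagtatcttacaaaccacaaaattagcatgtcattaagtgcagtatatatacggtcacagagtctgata
Csn1s2a: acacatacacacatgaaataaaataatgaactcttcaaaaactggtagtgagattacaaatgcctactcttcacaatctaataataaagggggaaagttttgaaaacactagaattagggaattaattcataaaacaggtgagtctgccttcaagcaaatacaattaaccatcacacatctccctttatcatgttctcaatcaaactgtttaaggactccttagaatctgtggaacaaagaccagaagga

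Each of the 3 casein promoters held 1 match to TTCNNNGAA in the window from 250 bases before to 50 after the start. Among all 32851 RefSeq promoter windows of that length, 8.30% held one. In Csn1s1 the match TTCTTAGAA lay from -100 to -92 and in Csn2 the match TTCTTGGAA lay from -93 to -85, counting the first transcribed base as 1. In Csn1s2a the same letters as in Csn1s1, TTCTTAGAA, lay after the start, from 21 to 29, so its printed stretch has no capitals. Of the 3, only Csn2 also matched the variant of this element with 1 more base between its arms, at TTCTTGGGAA from -140 to -131. That variant was in 6.95% of all windows.

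Matches to elements of other factors were fewer or common. The letters TTNNGNAA, a loose form of the C/EBP element, were matched in all 3 windows, with 5 matches in all, but 40.7% of all windows held them too. The half-element TTGGC of nuclear factor I was found in Csn2 only, from -248 to -244, against 46.7% of all windows. The glucocorticoid receptor half-element TGTTCT was found in Csn1s2a only, from -59 to -54, against 19.0%. The exact letters TATAAA were found in none of the 3, against 13.6%. Looser forms of that element were not searched, so a TATA box is not shown to be absent. Both strands were searched, and the match to TTNNGNAA from -137 to -130 in Csn2 overlapped the longer STAT5 variant. A match is a run of letters and was not tested as a binding site. Of the promoters of 4 other milk protein genes, Glycam1 held TTCNNNGAA, from -145, and Wap, Lalba and Spp1 did not.

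At parturition all 5 casein genes stood among the 21 named genes of at least 5000 FPKM, a level that 0.141% of the 14847 named genes reached. FPKM scales the sequenced fragments of a gene by transcript length and library size, so that levels of different genes can be compared roughly. Whether the length and symbol of each assembled locus are right was not checked here. The beta-casein gene Csn2 was at 170861 FPKM and the alpha-S1-casein gene Csn1s1 at 142389, and they ranked 1 and 2 among named genes. Csn1s2a, which encodes an alpha-S2-casein, was at 72910 FPKM and ranked 3. Csn3 was at 28095 FPKM and ranked 7, and Csn1s2b, the other alpha-S2-casein gene of the mouse, was at 7259 FPKM and ranked 21. On the log2(FPKM + 1) scale the 5 genes ran from 12.83 to 17.38, with a median of 16.15 against 2.29 for all named genes.

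The step from one casein gene to the next grew down the order. Csn2 was 1.20 times Csn1s1, Csn1s1 was 1.95 times Csn1s2a, Csn1s2a was 2.60 times Csn3, and Csn3 was 3.87 times Csn1s2b. With 1 library none of these steps can be set against the spread between animals, and the first of them was small. Even the lowest casein gene stood 1859 times above the median named gene, which was at 3.90 FPKM.

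**Figure D1:**
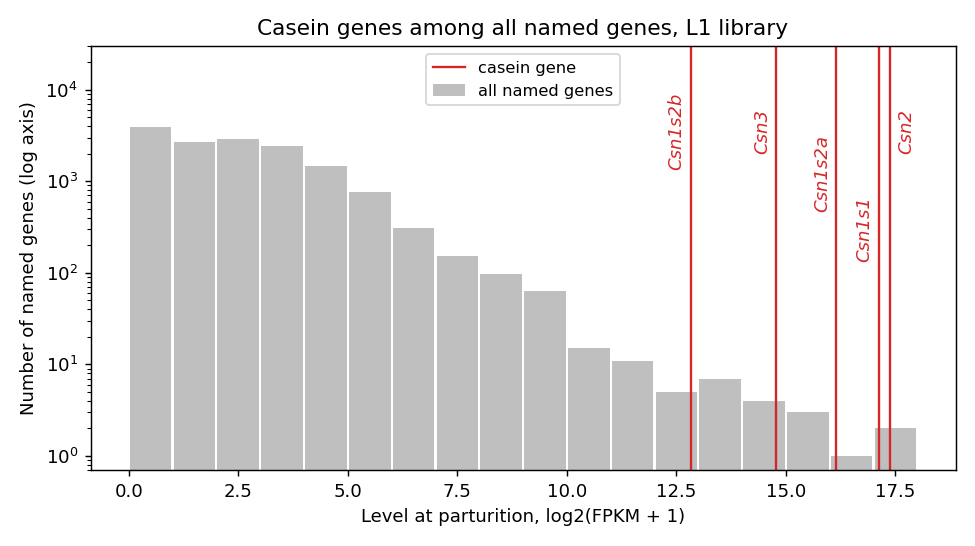
Histogram of the levels of all 14847 named genes at parturition in steps of 1 on the log2(FPKM + 1) scale, with the number of genes on a log axis. Red lines mark the 5 casein genes of the same library, from Csn1s2b at 12.83 to Csn2 at 17.38, at the upper end where bins hold few genes.

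Caseins together came to 421514 FPKM, and within that sum the beta and alpha-S1 genes prevailed. Csn2 gave 40.5% of the casein sum, Csn1s1 33.8%, Csn1s2a 17.3%, Csn3 6.67% and Csn1s2b 1.72%. Since FPKM is scaled by length, these shares approximate proportions of transcripts and not of protein. The 4 calcium-sensitive caseins, all but Csn3, stood at 14.0 times Csn3. Of the summed FPKM of all named loci, Csn2 held 15.6%, Csn1s1 13.0%, Csn1s2a 6.66%, Csn3 2.57% and Csn1s2b 0.663%. The 5 genes together held 38.5%, and 17.9% when loci with no gene symbol were counted in the total.

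The level of each casein gene came from a single locus of the authors' transcript assembly. Csn2, Csn1s2a and Csn1s2b had 1 locus each. Csn1s1 had another locus at 1.09 FPKM, 130128 times below the first, and Csn3 another at 0.50 FPKM, 56443 times below. Of the 3391 named genes with more than 1 locus above 0, whose median ratio of the first to the second locus was 3.83, these were the largest but for 2 other genes: Csn1s1 ranked 2 and Csn3 ranked 4. Such a ratio rises with the level of the first locus, so these ranks in part repeat the high casein levels. No locus of the table joined a casein symbol to that of another gene. The position and strand of these loci were not used here.

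The nearest genes in rank came from both milk protein genes and genes without a known part in milk. Below Csn1s2a stood Il1rapl1 at 65299 FPKM, a neuronal receptor family gene, lower by a factor of 1.12. Csn3 stood between Glycam1, a milk mucin-like protein gene, at 59241 FPKM and Fam163b at 23616. Around Csn1s2b lay Xkrx at 7808 and Cdk8, a kinase gene of the Mediator complex, at 4175. With a single library no gene has a pattern across samples, so nearness in rank is the only likeness given.

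The measured genes lying between the caseins were low, below the median named gene at 3.90 FPKM. In the RefSeq gene table of GRCm38.p6, used only for the order of genes, the run reads Csn1s1, Csn2, Csn1s2a, Csn1s2b, Prr27, Odam and Csn3 when genes without a value here are skipped. Prr27, a proline-rich protein gene listed under its older name 4930432K09Rik, had 3 loci at 0.86, 0.49 and 0.23 FPKM. Odam, a gene of ameloblasts and of the same gene family as the caseins, was at 1.41 FPKM. Thus Csn1s2b, next to Prr27 in that order, was 8474 times as high, and Csn3 was 19952 times as high as Odam. Both ratios rest on low values in 1 library of unknown depth and are rough. Of the 7 annotated genes between the caseins, pseudogenes included, only these 2, Prr27 and Odam, had a value.

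Measured genes around the run were also far below the caseins, though not all below the median named gene. Of the 5 genes before Csn1s1 in the table, only the sulfotransferase gene Sult1d1 had a value, 5.66 FPKM, and of the 5 after Csn3 none had. In all, 12 of a list of 31 symbols, some of them older and newer names of 1 gene, for the secretory calcium-binding phosphoprotein family and the wider neighbourhood were measured, with a median of 9.26 FPKM. The osteopontin gene Spp1, a family member away from the casein run, was at 19351 FPKM, and all others were at 20.9 FPKM or lower. Next in that list were Sparcl1 at 20.9, the ribosome biogenesis gene Utp3 at 19.9 and the antibody joining chain gene Igj at 19.8 FPKM, and Tmprss11d was listed at 0.

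**Figure D2:**
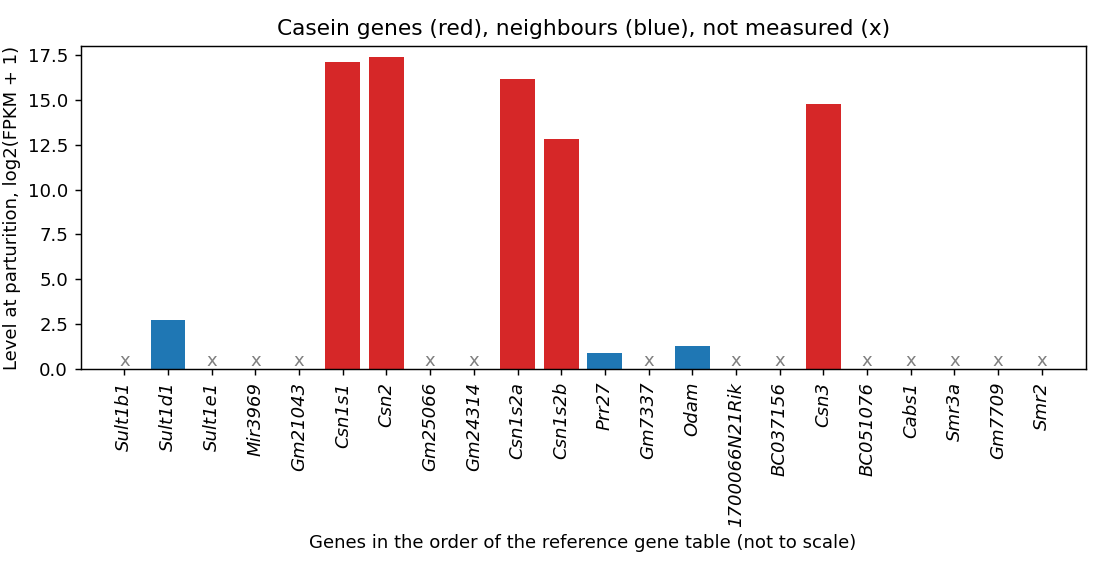
Level of each gene at parturition on the log2(FPKM + 1) scale, in the order of the reference gene table from 5 genes before Csn1s1 to 5 after Csn3, with distances not to scale. Red bars are the 5 casein genes, blue bars the 3 measured neighbours (Sult1d1, Prr27 and Odam, none above 5.66 FPKM), and x marks genes without a value here.

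Caseins also stood above the other milk proteins taken as a group. The 11 measured genes of whey and other milk proteins summed to 174391 FPKM, so the casein sum was 2.42 times theirs, and their median was 8034 FPKM against 72910 for the caseins. The ranges overlapped. The whey acidic protein gene Wap at 63664 FPKM and Glycam1 exceeded Csn3 and Csn1s2b. Spp1, the iron carrier gene Trf at 11909, Expi at 8186 and Lalba, the gene of alpha-lactalbumin, at 8034 lay between Csn3 and Csn1s2b. The lactoperoxidase gene Lpo was the lowest of the list at 58.8 FPKM.

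Markers of mammary epithelium were present, as the tissue label has it, and so were those of other cell types. All 5 luminal markers were at 108 FPKM or higher, with a median of 179. The 4 measured basal markers had a median of 46.05 FPKM, 4 adipocyte markers one of 319, 3 endothelial markers one of 14.3 and 4 skeletal muscle markers one of 27.2. The adipocyte markers were spread widely, from Plin1 at 14.3 FPKM to Fabp4 at 723. In bulk tissue the number of cells of a type and the RNA per cell cannot be told apart, so the casein levels are those of the gland and not of an alveolar cell.

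Genes that carry the lactogenic signal to the casein promoters were far lower than their targets. Of 27 measured genes of casein transcription, 24 reached 1 FPKM (88.9%, against 73.6% of all named genes) and 13 reached 10 (48.1%, against 27.9%), with a median of 9.31 FPKM. The list held 28 genes, and Cebpb, a gene of a C/EBP factor, had no value here. The prolactin receptor gene Prlr was at 17.1 FPKM and its kinase gene Jak2 at 7.76. Stat5a was at 41.8 and Stat5b at 17.6 FPKM, so that Csn2 stood 4085 times above Stat5a.

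Among the partners of STAT5, the epithelial factor gene Elf5 led the list at 577 FPKM. Ybx1, a gene of an RNA- and DNA-binding protein, followed at 98.2, and Nfib, one of the nuclear factor I genes, was at 36.8, or 54.4 summed over its 3 loci. The glucocorticoid receptor gene Nr3c1 was at 34.8 FPKM. Runx2 was lowest at 0.30 FPKM. The lowest casein gene, Csn1s2b, was 12.6 times as high as Elf5.

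Genes of phosphorylation and calcium loading, the steps that turn caseins into micelles, stood at a median of 23.8 FPKM. All 16 genes listed were measured and reached 1 FPKM and 11 reached 10 (68.8%, against 27.9% of named genes). The phosphate transporter gene Slc34a2 was at 275 FPKM. Fam20c, which encodes the Golgi kinase that phosphorylates caseins, was at 113, and Fam20a, whose product activates that kinase, was at 107. The related Fam20b, a kinase gene of proteoglycan synthesis, was at 10.8 FPKM.

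The highest calcium pump genes of the secretory route came behind Fam20c and Fam20a but above Fam20b. Atp2c2, a Golgi calcium pump gene, was at 85.9 FPKM and Atp2c1, its relative, at 49.1, while the plasma membrane pump gene Atp2b2 was at 55.7 and Atp2b1 at 7.17. The subunit genes of casein kinase 2, which despite its name is a kinase of the cytosol and nucleus, were at 60.7 FPKM for Csnk2b, 22.8 for Csnk2a1 and 4.04 for Csnk2a2. Summed over loci, Csnk2a1 came to 45.2 and Csnk2a2 to 6.53 FPKM. The calcium sensor gene Stim1 was lowest by its highest locus, at 3.96 FPKM, but came to 7.54 summed over its 4 loci, above Csnk2a2. All of these stood below the lowest casein gene by a factor of at least 26.4.

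Among the caseins, kappa-casein is known for its O-linked sugars, and the 12 genes of that pathway, all measured, stood at a median of 9.05 FPKM. Of these 11 reached 1 FPKM (91.7%, against 73.6% of all named genes) and 5 reached 10 (41.7%, against 27.9%). Galnt1, which starts such chains, was at 75.3 FPKM, and C1galt1c1, the chaperone of the next enzyme, at 34.02. The sialyltransferase genes St3gal1 and St6galnac2 were at 26.7 and 21.8 FPKM, and St3gal1 came to 48.2 summed over its 4 loci, above C1galt1c1. Galnt6, another chain-starting gene, was lowest at 0.094 FPKM. Galnt1 thus led the other measured Galnt genes, of which Galnt2 was next at 8.88 FPKM.

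**Figure D3:**
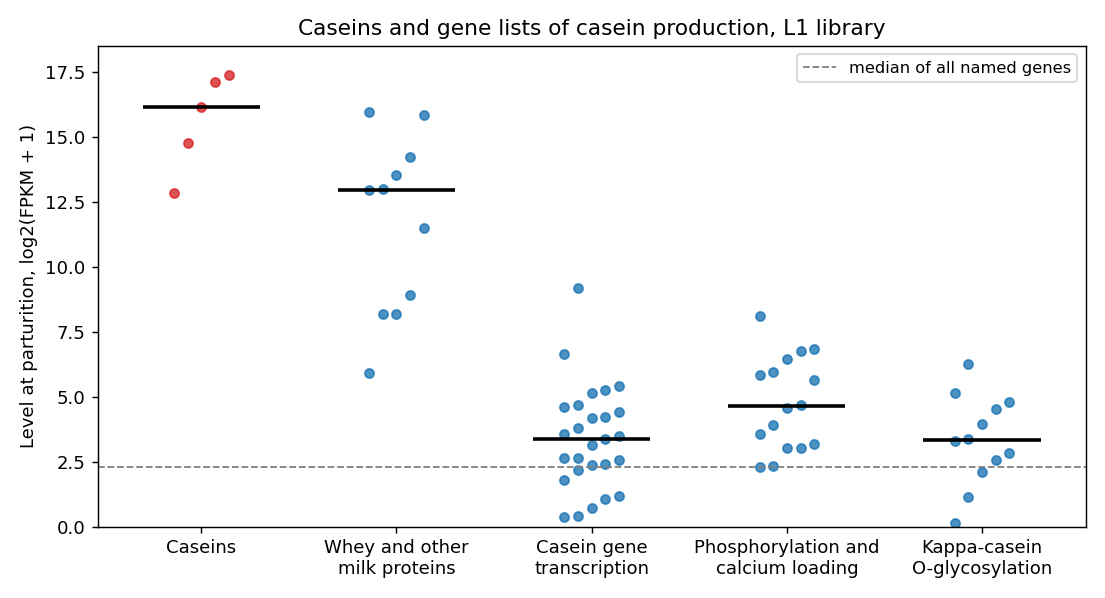
Level of each measured gene at parturition on the log2(FPKM + 1) scale, for the 5 caseins (red) and 4 gene lists (blue), with a black bar at the median of each list. The dashed line is the median of all named genes, 2.29, and the last 3 lists lie wholly below the lowest casein at 12.83.

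At P6, long before parturition, the casein window held 12 STAT5A peaks, each 215 bp wide, in 6 places. Neighbouring peaks no more than 12.5 kb apart were taken as 1 place. Scores are the authors' own values on a scale that neither labels nor headers name, and they are compared only within the list. All positions are in mm9, count from 1 and lie on chromosome 5. No annotation of mm9 was used here, so the peaks were not assigned to single casein genes.

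The first place was a lone peak at chr5:88091421-88091635 with a score of 14.5, above 95.5% of all STAT5A peaks. Next came a pair 5.96 kb apart, at chr5:88128431-88128645 with a score of 9.4 and at chr5:88134603-88134817 with a score of 4.5, close to the minimum of the list, 4.3. A lone peak with a score of 7.0 followed at chr5:88154796-88155010. A trio within 3.56 kb, at chr5:88199995-88200209, chr5:88200967-88201181 and chr5:88203341-88203555, had middling scores of 6.7, 5.7 and 5.9.

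After a stretch of 95.7 kb without a peak stood the place with the most peaks, 4 in 8.58 kb. They lay at chr5:88299205-88299419, chr5:88305757-88305971, chr5:88306285-88306499 and chr5:88307570-88307784, with scores of 5.6, 13.2, 5.4 and 7.8. The last place was a lone peak at chr5:88353525-88353739 with a score of 34.7. It ranked 16 among all 8822 peaks and 2 among the 503 peaks of chromosome 5, and its score was 2.39 times the next one in the window.

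The other 11 peaks had scores from 4.5 to 14.5, in a list that reached 121.3. Over all 12, the median score was 6.85 against 6.0 over all peaks, 7 of the 12 peaks were at or above that overall median, and 4 were at or above the upper quartile of 8.1. The distance to the next peak had a median of 6.34 kb in the window and 80.7 kb over the list. The first value leaves out the gaps that reach beyond the window. With 12 peaks in 350 kb the gaps inside must be short, so this contrast restates the count. No further STAT5A peak was listed for 796 kb after the last one, whereas 3 peaks lay within 100 kb before the window. Of these the nearest, at chr5:88005190-88005404 with a score of 7.5, was 86.02 kb from the first peak inside, and the highest, at chr5:87992144-87992358, had a score of 15.8.

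**Figure D4:**
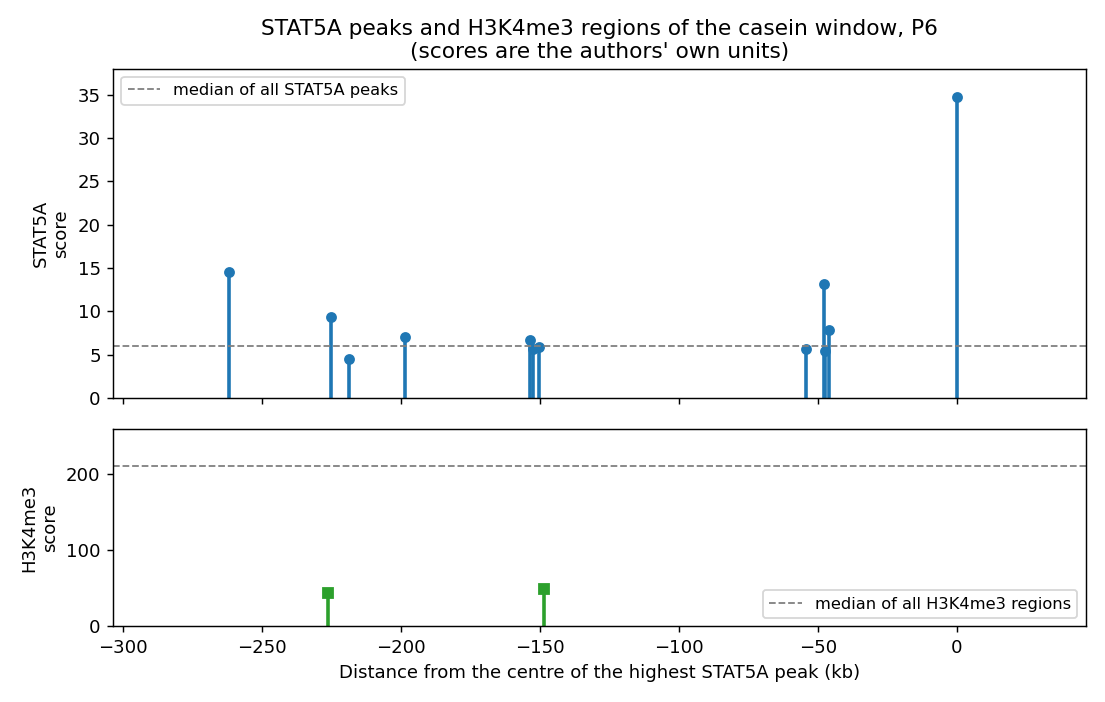
STAT5A peaks (upper panel) and H3K4me3 regions (lower panel) of the casein window at P6, as vertical lines at their centres, in kb from the centre of the highest STAT5A peak, with the authors' score as height and the median of each whole list dashed. STAT5A scores run from 4.5 to 34.7 around a median of 6.0, and both H3K4me3 regions, at 43.4 and 48.5, lie below the median of 211.

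Both H3K4me3 regions of the window at the same stage had low scores. One region lay at chr5:88126920-88127420 with a width of 501 bp, the smallest in the list, and a score of 43.4, above 13.3% of all regions. The other lay at chr5:88204624-88205718 with a width of 1095 bp and a score of 48.5, above 15.4% of all regions. Over the whole list the median score was 211 and the median width 1318 bp. The nearest regions outside were 893 kb before the first and 777 kb after the second, at chr5:87232789-87234387 and chr5:88982628-88984425, with scores of 360.8 and 481.0. Gaps between successive regions had a median of 49.96 kb, and 3.83% and 4.49% of them were longer than these 2.

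Both H3K4me3 regions stood about 1 kb from a STAT5A peak, and no STAT5A peak lay on one. The first region was 1.01 kb from the STAT5A peak that starts at 88128431, and the second was 1.07 kb from the last peak of the trio. Over all STAT5A peaks 20.4% shared at least 1 bp with a region. A count of 0 of 12 peaks allows a share of up to 25.0%, by counting error alone and with each peak counted as independent. With so few peaks, lying in only 6 places, a difference from the whole list was not detectable. The 5 peaks of the last places, among them the highest, were 93.5 to 148 kb from any region, and the median distance over the 12 peaks was 31.3 kb against 19.8 kb over the list.

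The count of STAT5A peaks was set beside tiles of the same length along the genome. Tiles of 350 kb, laid end to end from the first base of each chromosome, held 1.17 peaks on average, and 54.3% of the 7521 tiles held none. At least 12 peaks were in 13 tiles (0.173%), up to 23 in a tile. The casein window was set around the locus and the tiles were not, so the comparison depends on the grid. A tile border of this grid splits the locus. The tiles on either side held 7 peaks, of which 3 lay before the window, and 8 peaks, levels that 2.45% and 1.40% of tiles reached. With the grid moved by 175 kb, a choice made after seeing the data, a single tile held all 12 peaks and 0.213% of tiles held as many.

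For H3K4me3 the window was ordinary by count. At most 2 regions were in 72% of the tiles, and the median was 1. Among the 13 tiles with at least 12 STAT5A peaks the number of H3K4me3 regions lay between 1 and 14 (median 3), and 6 of the 13 held at most 2. These tiles were not examined further, and no input library was used here.

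**Figure D5:**
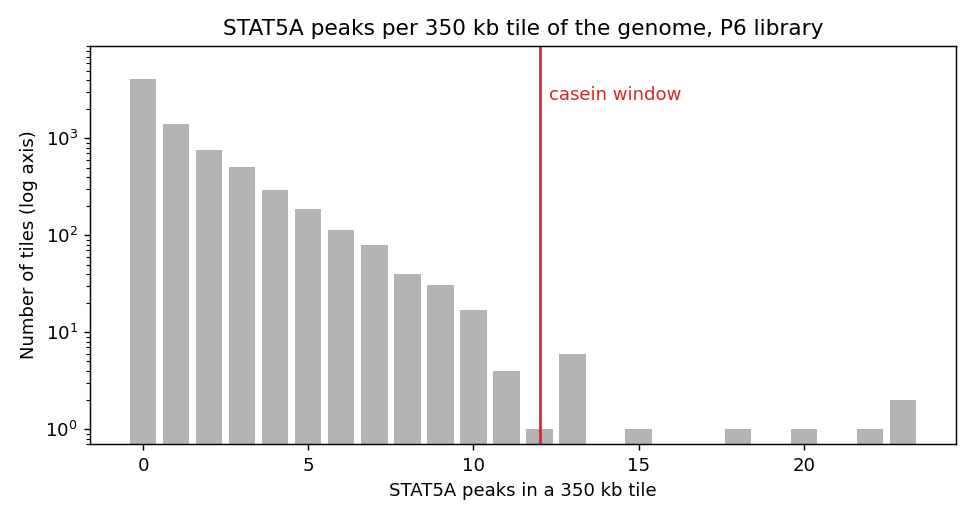
Number of 350 kb tiles of the genome (log axis) by how many STAT5A peaks they held at P6, with the casein window marked in red at 12. Of 7521 tiles 13 held at least 12 peaks, and tiles with none were the most common.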

How the data were processed

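The series holds ChIP-seq and RNA-seq of mouse mammary tissue, and the processed files of 3 samples were used, 1 library per group. Per the submitters' processing notes, both assays used CASAVA and mm9, the ChIP-seq with Bowtie and HOMER and the RNA-seq with TopHat. The labels and file headers do not say how peaks were called, whether an input entered that step or which tool made the expression values. The deposited BED files give a position and the authors' score per peak or region, and starts were moved to count from 1. The deposited table gives FPKM for L1 only, for 30305 loci of a transcript assembly, per the file headers. The files hold no read counts, so the depth of each library is unknown and no interval or floor on FPKM was computed.

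The level of a gene is the FPKM of whichever of its loci was highest. No low-value filter was used, and the log scale is log2(FPKM + 1). A locus with several symbols was left out. STAT5A peaks and H3K4me3 regions overlapped when they shared at least 1 bp. Genes named are all caseins, their neighbours in rank and in gene order, and for each list the 4 highest and the lowest measured members, with Stat5a, Stat5b, Prlr, Jak2 and Nr3c1, and a few further members chosen after their values were seen. The members and lists were chosen with earlier results of these data known. Sequences are from RefSeq, GRCm38.p6. Of the marker lists, that for lymphocytes is not reported here. Functions were tested on simulated data. Python 3.11.15, pandas 2.3.3, numpy 2.4.6 and matplotlib 3.10.9 were used.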

Additional observations from a re-analysis of the deposited data

How the results depend on the processing

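Depth is unknown and each group holds 1 library, so no value has an error. No paired analysis was possible because no result comes from a test and each group used holds 1 library. The casein share of summed FPKM, 38.5% of named loci, was 17.9% of all loci and 38.6% with loci of at least 1 FPKM. Leaving out named loci above 5000 FPKM that were neither caseins nor listed whey or other milk proteins gave 46.5%. The casein median exceeded that of all named genes by 13.86 on the log2 scale, by 14.15 with a pseudocount of 0.1, by 13.20 with genes of at least 1 FPKM and by 13.74 with sums over loci. Of the 12 STAT5A peaks, 7 had a score of at least the median of all peaks, and 0 of the 2 H3K4me3 regions had. With 100 kb added on each side there were 15 peaks and 2 regions. With a distance of up to 1 kb allowed from the centre of a peak, 0 peaks counted as on H3K4me3, as with 1 bp shared. The nearest peaks lay 1.01 and 1.07 kb from a region, just beyond that distance. Among all loci, unnamed ones included, Csn2 ranked 2, Csn1s1 4, Csn1s2a 6, Csn3 12 and Csn1s2b 49. The other 19 alternatives for single casein genes gave the same value to 3 significant digits or the same rank.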

Other observations

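Loci without a gene symbol also reached casein levels. Of the 8230 unnamed loci, 1 stood above Csn2, at 375232 FPKM, and 28 stood above Csn1s2b. Among named genes above 5000 FPKM, 10 were neither caseins nor on the list of whey and other milk proteins. What these loci hold was not tested.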
